A study of Mus musculus with 48 samples.

Results

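The transcripts described here encode 10 subunits of the AMPA and NMDA types of ionotropic glutamate receptor, 4 of the AMPA type (Gria1 to Gria4) and 6 of the NMDA type (Grin1, Grin2a, Grin2b, Grin2c, Grin2d and Grin3a). They were taken by name from the 55357 genes of the count table, and each was found there by its Ensembl identifier. The rule uses no measured value, but the genes were chosen with earlier results of these data known. RNA sequencing covered the dorsal dentate gyrus of 24 wild-type C57BL/6J mice that received either kainate or saline by a unilateral injection into the hippocampus. The injected side is called the epileptogenic zone (EZ) and the other side the peri-ictal zone (PIZ), and both were dissected from each mouse at day 3, 7 or 14, which gave 48 libraries in 12 groups of 4 mice, 2 male and 2 female each. Ages differ between the sources, being 6 to 8 weeks in the GEO record and 8 to 10 weeks in the methods. Saline mice carried the same surgery, and every kainate mouse had at least 1 observed behavioral seizure after the injection, so the kainate groups hold the drug and the seizures together. The question was how the transcripts of the receptors for glutamate differed between kainate and saline mice on each side over these days.

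AMPA receptors are tetramers of GluA1 to GluA4 that open within milliseconds of glutamate release and carry most fast excitatory current. NMDA receptors combine the obligatory GluN1 subunit with GluN2 subunits, or with GluN3 subunits, need a co-agonist, glycine or D-serine, as well as glutamate, and let calcium in when the postsynaptic membrane is already depolarized. In the dentate gyrus both receptor types sit on the dendrites of granule cells, where the fibers of the entorhinal cortex end. Kainate itself acts on kainate receptors and also opens AMPA receptors.

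On build GRCm39 the AMPA receptor genes were Gria1 at chr11:56902153-57221080 on the plus strand, Gria2 at chr3:80588757-80710538 on the minus strand, Gria3 at chrX:40489476-40767490 on the plus strand and Gria4 at chr9:4417604-4796326 on the minus strand. The NMDA receptor genes all lay on the minus strand, Grin1 at chr2:25181186-25209226, Grin2a at chr16:9385762-9813424, Grin2b at chr6:135690231-136150548, Grin2c at chr11:115139992-115158525, Grin2d at chr7:45481304-45527802 and Grin3a at chr4:49661611-49845847.

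The pore of an AMPA receptor is lined by a short loop that is close to identical in the 4 subunits, and it is shown because it holds the codon at which RNA editing changes glutamine to arginine in GluA2, the change that keeps calcium out of most AMPA receptors. The stretches below were read from the reference transcripts of build GRCm39, 5′ to 3′ on the coding strand, and capitals mark the codon of this glutamine/arginine site. They lie in 1 exon each, at chr11:57133899-57133943 on the plus strand for Gria1 (exon 11 of 15), chr3:80614197-80614241 on the minus strand for Gria2 (exon 11 of 16), chrX:40699121-40699165 on the plus strand for Gria3 (exon 11 of 14) and chr9:4464116-4464160 on the minus strand for Gria4 (exon 12 of 17).
Gria1: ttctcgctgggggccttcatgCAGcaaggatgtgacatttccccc
Gria2: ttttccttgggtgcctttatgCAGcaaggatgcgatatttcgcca
Gria3: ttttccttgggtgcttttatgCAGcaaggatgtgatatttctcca
Gria4: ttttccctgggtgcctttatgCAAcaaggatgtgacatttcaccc
All 4 genes encode glutamine there, Gria1 to Gria3 with the codon CAG and Gria4 with CAA. The counts do not show how many transcripts were edited, so this site is background to the levels of the editing enzymes given further on. Over their whole reference transcripts the longest run of identical bases between any 2 of the 10 genes was 35 bases, and it was between Gria1 and Gria2 (45 pairs of genes). The libraries were read with a 75-cycle module shared by both mates of a pair, and how many reads fell in such stretches was not tested.

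Library totals lay between 17762656 and 25712975 counts, and all 10 genes passed the filter on low counts, which kept 21390 genes. The lowest count of any subunit in any library was 33, for Grin2d, and Gria1 held between 4128 and 30534 counts. Granule cell markers were present in the saline libraries, with Prox1 at a median of 275 CPM (counts scaled to an equal library size with TMM factors) and Dsp at 146 CPM, while markers of other regions were there too, such as Mpped1 of CA1 pyramidal cells at 125 CPM. With kainate the 8 pan-neuronal markers summed to between 2510 and 4364 CPM in the EZ at day 3, against 5657 to 6931 CPM with saline, and 4 of the 8 were downregulated. At day 7 the sums were 1838 to 4470 CPM against 5751 to 7176 CPM, and 6 of 8 were downregulated. All 6 microglia markers were upregulated in the EZ at day 7, where they summed to between 867 and 3033 CPM against 285 to 308 CPM. At day 3 in the EZ 5 of 6 microglia markers were upregulated, at 717 to 1052 CPM against 345 to 586 CPM. In the PIZ at day 3 the 6 microglia markers were all upregulated, at 654 to 809 CPM against 201 to 283 CPM. None of the 8 pan-neuronal markers passed the test there, but their sums were lower in every kainate library, at 5181 to 5831 CPM against 6018 to 7862 CPM. There 2 of 8 granule cell markers were downregulated (median log2 fold change -0.81), at summed levels of 566 to 780 CPM against 582 to 1119 CPM, and 1 of 4 CA1 markers (-0.88), at 112 to 247 CPM against 275 to 511 CPM. Of the 6 astrocyte markers, 3 were upregulated in the same comparison (0.89), at 8600 to 9416 CPM against 4155 to 5598 CPM, as were 2 of 6 oligodendrocyte precursor markers (0.61), and 1 of 4 thalamus markers was downregulated. In the EZ 3 of 8 granule cell markers were downregulated at day 3 (-1.06) and at day 7 (-1.07), with sums of 373 to 754 CPM against 867 to 1083 CPM at day 3. Interneuron markers were at a median of -2.11 with 5 of 7 downregulated at day 3 and at -2.03 with 4 of 7 at day 7, CA1 markers at -1.77 with 2 of 4 and -1.79 with 3 of 4, and CA3 markers at -1.10 and -1.12 with 2 of 4 on each day. Of the 6 oligodendrocyte precursor markers 5 were upregulated at day 3 (1.26) and 6 at day 7 (1.32), and of the 6 astrocyte markers 3 and 4, with 1 downregulated at day 3. Of the remaining lists in the EZ at day 3 and day 7, 3 of 4 endothelium markers were upregulated on each day, 1 and 2 of 4 mossy cell markers were upregulated and 1 downregulated, and 1 of 3 tested choroid plexus markers was downregulated. None of 4 immature neuron markers passed, 0 and 1 of 5 oligodendrocyte markers were upregulated, and of 4 thalamus markers 1 was downregulated on each day and 1 upregulated at day 7. The part of these cell types in the levels of the subunits was not tested.

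Without kainate the 10 transcripts spanned a wide range of levels. Per kilobase of reference transcript (CPM per kilobase), Gria1 was the most abundant over the 24 saline libraries, at 208 ± 11.3 (SD, n = 24), followed by Grin1 at 106 ± 11.2 and Gria2 at 105 ± 5.76. Gria3 came next at 42.9 ± 2.82, then Grin2b at 39.1 ± 3.56 and Grin2a at 35.5 ± 3.34. The other 4 were at a lower level, with Grin2c at 9.11 ± 1.10, Gria4 at 7.19 ± 1.51, Grin3a at 3.45 ± 1.15 and Grin2d at 1.47 ± 0.31 CPM per kilobase. Grin1 was above Gria2 in 11 of 24 libraries, so these neighbors did not differ beyond their spread. Gria3 was above Grin2b in 23, Grin2b above Grin2a in 22 and Grin2c above Gria4 in 21 of the 24, with overlapping ranges, and the other neighbors kept their order in all 24. With the total exon length of each gene in place of the reference transcript, Gria2 ranked above Grin1, and Grin2b and Grin2a ranked above Gria3. Saline EZ and saline PIZ libraries gave similar levels, and none of the 10 genes passed the test of that difference, in which 0.0234% of all tested genes did. By edgeR 2 of the 10 genes and 1908 of all genes had an unadjusted p under 0.05, and DESeq2 and limma-voom called 0 of the 10. The lowest adjusted p among the 10 was 0.50, for Grin2c, which was 0.20 ± 0.08 (SE) higher on the EZ side on the log2 scale.

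**Figure D1:**
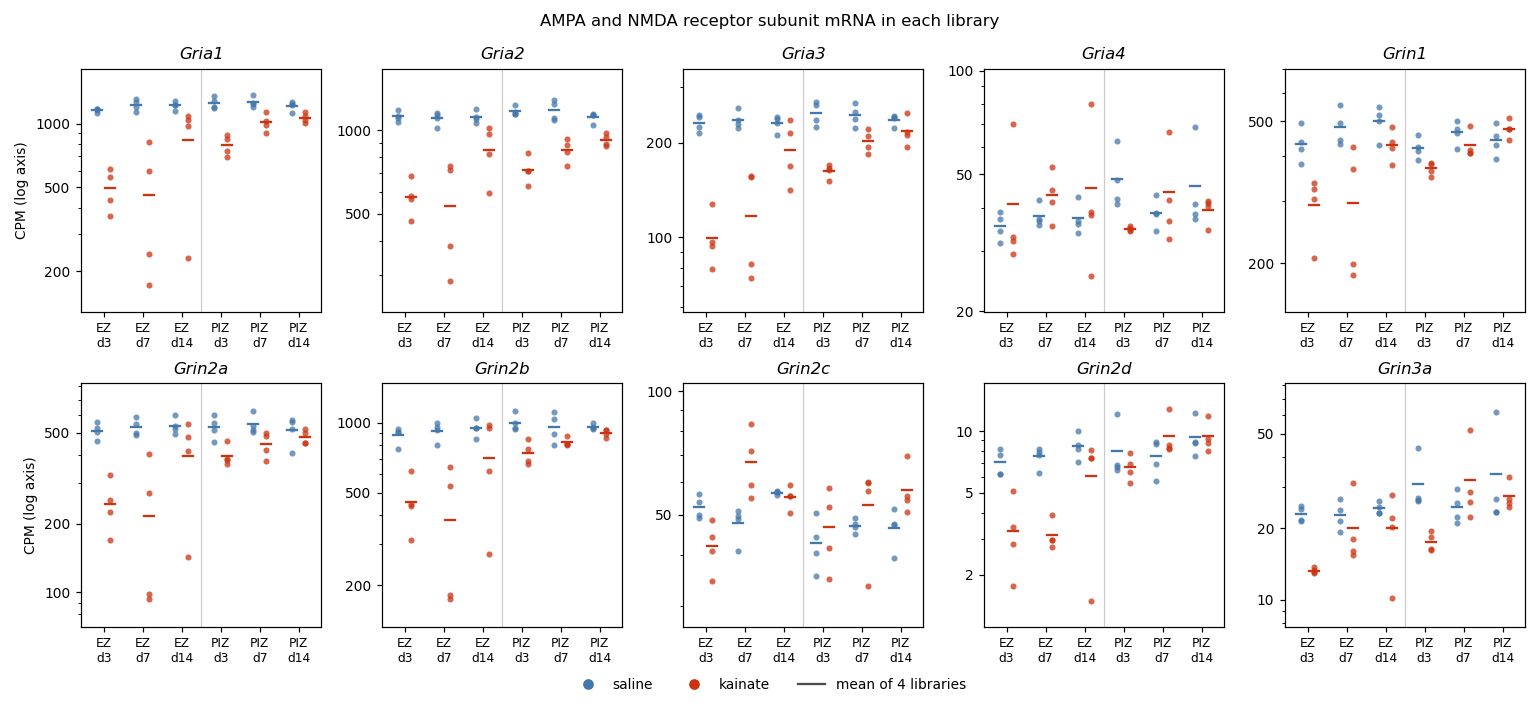
CPM of each subunit in each of the 48 libraries on a log axis, by region (EZ, PIZ) and day (d3, d7, d14). Points are libraries (blue saline, red kainate, 4 each) and short lines are group means. The red points of Gria1, Gria2 and Gria3 lie below all blue points in the EZ at day 3 and day 7, and Gria1 of 1 kainate mouse in the EZ at day 14 is at 230 CPM, far below the other 3 at 974 to 1088 CPM.

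Kainate was followed by lower levels of most of these transcripts in the EZ at day 3. A gene was called downregulated or upregulated at an adjusted p under 0.01 and a change of more than 1.5-fold, by edgeR's quasi-likelihood test with Benjamini-Hochberg adjustment over all 21390 genes. Of the 10 subunit genes, 6 were downregulated and none upregulated, where 8.61% of all tested genes were downregulated by the same rule. The median log2 fold change of the 10 genes was -0.96, against 0.03 over all tested genes. In 9 of the 10 genes all 4 kainate libraries lay below all 4 saline libraries, which held for 18.5% of all tested genes. These are whole-tissue RNA levels, in which fewer neurons and less RNA per neuron cannot be told apart.

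Gria1 encodes GluA1, a subunit that enters synapses during potentiation. In the EZ at day 3 it was at 436, 365, 561 and 612 CPM with kainate and at 1174, 1173, 1161 and 1119 CPM with saline. The kainate libraries lay far below the saline libraries, with a log2 fold change of -1.23 ± 0.29 (SE, n = 4 against 4, adjusted p = 0.000756 by edgeR), which is 42.7% of the saline level. Gria2, whose edited product GluA2 limits calcium entry, was at 686, 473, 580 and 567 CPM against 1106, 1129, 1185 and 1069 CPM. Its libraries did not overlap either, at -0.96 ± 0.17 on the log2 scale (adjusted p = 2e-05 by edgeR). Gria3 was at 96.6, 79.2, 93.8 and 127 CPM against 241, 215, 245 and 224 CPM, a log2 fold change of -1.22 ± 0.16 (adjusted p = 2.8e-07 by edgeR). Gria4 went the other way in 1 library only: it was at 70.1, 32.8, 32.1 and 29.4 CPM with kainate, in mouse 30 well above the others, against 37, 31.5, 38.9 and 34.2 CPM with saline. Its log2 fold change of 0.21 ± 0.24 did not pass the test (adjusted p = 0.49), and its 95% interval ran from -0.28 to 0.71.

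Among the NMDA receptor subunits of the EZ at day 3, Grin2a, Grin2b and Grin2d were downregulated. Grin2a encodes GluN2A, the GluN2 subunit that rises as synapses mature, and was at 225, 169, 255 and 327 CPM with kainate against 523, 504, 557 and 462 CPM with saline (log2 fold change -1.07 ± 0.29, adjusted p = 0.0024). Grin2b, which encodes the GluN2B subunit of slow NMDA currents, was at 446, 314, 439 and 621 CPM against 913, 909, 944 and 772 CPM (-0.96 ± 0.27, adjusted p = 0.0039). Both pairs of groups were apart in every library. Grin2d was the least abundant subunit, at 1.76, 2.83, 3.41 and 5.09 CPM against 6.18, 6.17, 7.66 and 8.18 CPM (-1.11 ± 0.29, adjusted p = 0.0019). The common subunit gene Grin1 was at 323, 208, 303 and 336 CPM against 495, 380, 437 and 418 CPM. It was lower in every kainate library, with an adjusted p of 0.0033, but its log2 fold change of -0.57 ± 0.16 was a change of less than 1.5-fold. Grin3a, which encodes GluN3A, was at 13 to 13.7 CPM against 21.6 to 24.9 CPM (-0.80 ± 0.26, adjusted p = 0.011) and Grin2c at 34.6 to 48.7 CPM against 49.1 to 56.1 CPM (-0.31 ± 0.14, adjusted p = 0.071), and neither passed. Grin3a was called by DESeq2 (-0.82, adjusted p = 0.0057), by limma-voom, with RLE size factors and in a model of the 8 libraries alone. Grin1 was called by DESeq2 (-0.59, adjusted p = 0.00103) and with RLE size factors. DESeq2 and RLE size factors thus gave 8 genes each in place of 6, with 5381 and 5259 of all genes against 5280. Without kainate mouse 38, the library with the lowest Gria1 and Grin2a in its group, 3 genes (Gria1, Gria2 and Gria3) remained called in place of 6, and 3921 in place of 5280 of all genes. Grin2a was then at -0.93 (adjusted p = 0.018), Grin2b at -0.81 (0.028) and Grin2d at -1.04 (0.011). These calls did not depend on mouse 38 alone. Grin2b also lost its call without kainate mouse 30 or 42 or saline mouse 18 or 37, at -0.93 to -0.95 with adjusted p between 0.0104 and 0.0128, and Grin2d without mouse 30 (-0.90, adjusted p = 0.0149). In the EZ library of mouse 38 the pan-neuronal markers summed to 2510 CPM and the microglia markers to 1052 CPM, against 3444 to 4364 CPM and 717 to 924 CPM in the other 3 kainate libraries.

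At day 7 in the EZ 7 of the 10 genes were downregulated and none upregulated, against a share of 11.9% of all tested genes that were downregulated. The median log2 fold change was -1.03, against 0.01 over all tested genes, and 7 of the 10 genes had no overlap in the downward direction, as did 20.1% of all tested genes. Gria1 was at 241, 822, 600 and 171 CPM with kainate (mice 21, 23, 26 and 35) and at 1304, 1202, 1273 and 1139 CPM with saline, a log2 fold change of -1.42 ± 0.30 (adjusted p = 9.98e-05). The kainate mice fell into a low and a high pair, and mice 21 and 35 were the low ones for Gria1, Gria2, Gria3, Grin1, Grin2a and Grin2b. Gria2 was at 287, 747, 720 and 384 CPM against 1138, 1109, 1023 and 1154 CPM (-1.05 ± 0.17, adjusted p = 2.84e-06), and Gria3 was at 74.2, 157, 155 and 82.0 CPM against 258, 236, 223 and 229 CPM (-1.01 ± 0.16, adjusted p = 1.59e-06). Grin1 was downregulated as well, at 186, 424, 368 and 200 CPM against 555, 433, 495 and 443 CPM (-0.71 ± 0.16, adjusted p = 0.000252). Grin1 fell under the 1.5-fold threshold without mouse 21 (-0.54) or mouse 35 (-0.56), and the difference from its change at day 3 did not pass the test (-0.14, adjusted p = 0.86 by edgeR). Grin2a was at 98.1, 404, 273 and 93.4 CPM against 587, 490, 546 and 500 CPM (-1.29 ± 0.29, adjusted p = 0.000255).

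Grin2b at day 7 in the EZ was at 175, 644, 533 and 181 CPM against 1000, 959, 933 and 802 CPM (-1.27 ± 0.27, adjusted p = 0.000168 by edgeR). Grin2d was at 2.74, 2.96, 3.9 and 2.95 CPM against 6.28, 7.69, 7.95 and 8.19 CPM (-1.26 ± 0.29, adjusted p = 0.000386). Its 4 kainate libraries were close together, without the low and high pair of the other subunits. Gria4 was at 35.4 to 52.3 CPM against 35.6 to 42.2 CPM and Grin3a at 15.5 to 30.9 CPM against 19.3 to 26.5 CPM, with overlapping groups. Grin2c, which encodes the GluN2C subunit best known from cerebellar granule cells, was the only subunit with all kainate libraries above all saline libraries at day 7. It was at 59.3, 83.3, 71.7 and 55.1 CPM against 48.9, 49.8, 51.1 and 40.9 CPM, a log2 fold change of 0.50 ± 0.14 (adjusted p = 0.0036) that was under the 1.5-fold threshold. The EZ libraries of mice 21 and 35 also stood apart in their markers. Their 8 pan-neuronal markers summed to 1838 and 1907 CPM, against 3923 to 4470 CPM in mice 23 and 26, and their 6 microglia markers to between 2196 and 3033 CPM against 867 to 1284 CPM. Their 8 granule cell markers summed to between 171 and 289 CPM against 857 to 956 CPM in mice 23 and 26, which lay within the saline range of 749 to 1192 CPM. Their 5 oligodendrocyte markers summed to between 6086 and 9398 CPM against 3179 to 3734 CPM, and their 4 thalamus markers to between 139 and 172 CPM against at most 81.1 CPM. With both mice left out, a setting chosen after the data were seen, 3 genes were called in place of 7, Gria2 (-0.59) and Gria3 (-0.60) downregulated and Grin2c (0.70) upregulated on the log2 scale, and Gria1 was at -0.79 with an adjusted p of 0.032. Grin2d also lost its call, with a fold change about as large as before (-1.13, adjusted p = 0.024), while Grin2a (-0.65), Grin2b (-0.65) and Grin1 (-0.28) moved closer to 0. Calls over all genes went from 6960 to 2860 in that setting. A model of the 8 libraries compared, without the spread of the other groups, called only Grin2d (1 gene, with 3847 of all genes). The fold changes in that model were close to those above, for example -1.43 for Gria1 and -1.05 for Gria2 (adjusted p = 0.033 and 0.023).

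**Figure D2:**
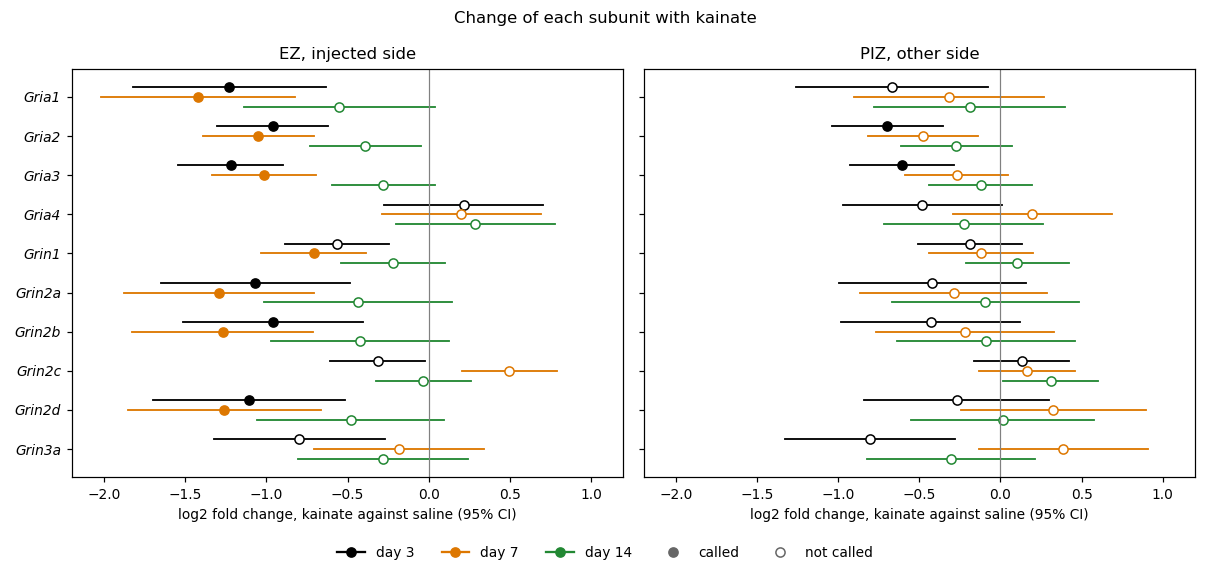
Log2 fold change of each subunit with kainate against saline in the EZ (left) and the PIZ (right) at day 3 (black), day 7 (orange) and day 14 (green), with 95% confidence intervals from the edgeR model. Filled points passed an adjusted p under 0.01 and a 1.5-fold change: in the EZ 6 genes at day 3 and 7 genes at day 7, in the PIZ 2 genes at day 3, and none at day 14.

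No subunit gene was called in the EZ at day 14, where 2.36% of all tested genes were. By edgeR's test 1 of the 10 genes and 3848 of all genes had an unadjusted p under 0.05, and no member was called by DESeq2 or limma-voom. Gria1 was at 1088, 230, 1044 and 974 CPM with kainate (mice 14, 27, 36 and 40) against 1285, 1149, 1228 and 1229 CPM with saline, a log2 fold change of -0.55 ± 0.29 (adjusted p = 0.32). Mouse 27 was far below the other 3, which lay just under the saline range. The same mouse had the lowest level of its group for Gria2, Gria3, Grin1, Grin2a, Grin2b, Grin2d and Grin3a and the highest for Gria4, at 79.8 CPM against 25.3 to 38.8 CPM. Gria2 was at 973, 594, 1020 and 824 CPM against 1100, 1064, 1193 and 1113 CPM (-0.39 ± 0.17, adjusted p = 0.20). Gria1 and Gria2 were the 2 genes in which all kainate libraries were below all saline libraries, as was the case for 3.42% of all tested genes. In the EZ library of mouse 27 the pan-neuronal markers summed to 3816 CPM and the microglia markers to 1508 CPM, where the other 3 kainate libraries had 5024 to 6508 CPM and 309 to 382 CPM. Without this mouse no subunit was called at day 14 either, and the genes called in the whole table went from 504 to 7. They numbered 30 without saline mouse 31 and 0 in a model of the 8 libraries alone, so the share of 2.36% rests on few libraries.

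On the other side, in the PIZ at day 3, 2 of the 10 genes were downregulated, Gria2 and Gria3, and none was upregulated, where 1.57% of all tested genes were downregulated. The median log2 fold change was -0.46, against 0.02 over all tested genes, and 7 of the 10 genes had no overlap in the downward direction, against 13.6% of all tested genes. Gria2 was at 714, 828, 716 and 631 CPM with kainate and at 1148, 1234, 1143 and 1164 CPM with saline (log2 fold change -0.70 ± 0.17, adjusted p = 0.0025). Gria3 was at 166, 170, 151 and 164 CPM against 236, 269, 225 and 263 CPM (-0.61 ± 0.16, adjusted p = 0.0046). Gria1 was at 739, 882, 844 and 693 CPM against 1185, 1352, 1205 and 1280 CPM. Its groups did not overlap either, but its change of -0.67 ± 0.29 did not pass in the model of all libraries (adjusted p = 0.090). Grin3a was at 16.3 to 19.5 CPM against 26 to 43.7 CPM (-0.81 ± 0.26, adjusted p = 0.021), and Grin1 at 350 to 383 CPM against 391 to 457 CPM (-0.19 ± 0.16, adjusted p = 0.41). The number of calls moved between 1 and 2 as single mice were left out: Gria3 was lost without kainate mouse 30 or 42 or saline mouse 29 or 41, and Gria2 without kainate mouse 44. With limma-voom, or in a model of the 8 libraries alone, 4 genes were called, the further ones being Gria1 and Grin3a, while the calls over all genes were 2778 and 2284 in place of 1858.

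Later in the PIZ no subunit passed the test. Of all tested genes 0.201% did at day 7 and 0.0140% at day 14, and 1 of the 10 genes at each day had an unadjusted p under 0.05 by edgeR (3104 and 1277 of all genes), with no member called by DESeq2 or limma-voom. Gria2 was at 928, 744, 838 and 884 CPM against 1242, 1290, 1088 and 1105 CPM at day 7, a log2 fold change of -0.48 ± 0.17 (adjusted p = 0.15). At day 14 it was at 947, 877, 977 and 893 CPM against 1134, 1139, 1144 and 1047 CPM (-0.27 ± 0.17, adjusted p = 0.93). Gria2 was thus lower in every kainate library than in every saline library in all 6 comparisons, although 3 of the 6 did not pass. Non-overlap in the downward direction was found for 4 of the 10 genes at day 7 and 2 at day 14, against 5.26% and 3.47% of all tested genes.

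The change with kainate was compared between the EZ and the PIZ by an interaction term in the same model. At day 7 it was more negative in the EZ for Grin2d, by -1.59 ± 0.41 on the log2 scale (adjusted p = 0.0054 by edgeR), the only subunit called (1 of 10), where 2.88% of all tested genes were called in that direction. Behind this stood Grin2d levels in the PIZ of 12.8, 8.28, 8.52 and 8.21 CPM with kainate against 6.90, 8.87, 8.67 and 5.70 CPM with saline, groups that overlapped. The library with 12.8 CPM was from mouse 21. Without mouse 21 the Grin2d difference was -1.34 with an adjusted p of 0.052. It also lost its call without kainate mouse 35 (adjusted p = 0.019) or any of saline mice 20, 33, 34 and 89 (0.012 to 0.024), with values between -1.43 and -1.66. Without kainate mouse 23, 7 genes were called (Gria1 to Gria3, Grin1, Grin2a, Grin2b and Grin2d), and without mouse 26, 2 genes (Gria3 and Grin2d). The calls over all genes moved in the same settings, from 2115 in both directions to 3752 without mouse 23 and 3119 without mouse 26. They were 1 without mouse 21, 188 without mouse 35 and 149 to 799 without a saline mouse, so the share of 2.88% also rests on single mice. With mouse as a replicate block, which uses the pairing of the 2 sides of each animal, Grin2d was at -1.58 (adjusted p = 0.0052) and Gria3 at -0.83 (adjusted p = 0.0088). So 2 of the 10 genes were called, with 2356 of all genes against 2115. Without the block Gria3 was at -0.75 ± 0.22 (adjusted p = 0.013), Grin2b at -1.05 ± 0.38 (0.039), Gria1 at -1.11 ± 0.41 (0.041) and Grin1 at -0.59 ± 0.22 (0.045). An unadjusted p under 0.05 by edgeR was found at day 7 for 7 of the 10 genes and 8594 of all genes. DESeq2 called 2 of the 10 genes at day 7 and limma-voom 7, with 2917 and 5126 of all genes against 2115. At day 3 no difference between the sides was called for the 10 genes, against 0.0655% of all tested genes, and 4 of the 10 had an unadjusted p under 0.05 by edgeR (3828 of all genes). DESeq2 called 0 of the 10 genes there and limma-voom 2, Gria3 and Grin2d, out of 1879 genes in all against 14 by edgeR. At day 14 none of the 10 genes and none of all tested genes was called (0%), by edgeR, with 0 of the 10 and 1562 of all genes at an unadjusted p under 0.05. DESeq2 and limma-voom called 0 of the 10 as well.

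Between days the kainate effect in the EZ was compared in the same way. From day 3 to day 7 no subunit passed, where 0.145% of all tested genes did, and the lowest adjusted p was 0.052 for Grin2c, whose effect turned from -0.31 to 0.50, a difference of 0.81 ± 0.20. It was the 1 subunit with an unadjusted p under 0.05 by edgeR (2565 of all genes). Without mice 21 and 35, a setting chosen after the data were seen, it was called, at 1.02 (adjusted p = 0.0046). In that setting 21 of all genes were called, against 31. DESeq2 called 0 of the 10 genes and limma-voom 3, Gria1, Grin2a and Grin2b, all lower at day 7, out of 1225 genes in all against 31 by edgeR. From day 7 to day 14 no subunit passed either, against 0.271% of all tested genes. Here the effect was higher at day 14 in 8 of the 10 genes, and 7 of the 10 had an unadjusted p under 0.05 by edgeR (7081 of all genes). DESeq2 called 0 of the 10 genes and limma-voom 6, Gria1 to Gria3, Grin1, Grin2a and Grin2b, where limma-voom called 6301 of all genes and edgeR 58. Gria3 had the lowest adjusted p, 0.027, with a difference of 0.74 ± 0.22. Without mouse 27, 4 genes were called higher at day 14 than at day 7 (Gria1, Gria2, Gria3 and Grin2d), and without mouse 23 the 4 genes called were Gria2, Gria3, Grin1 and Grin2a. Without mouse 26, 1 gene (Gria3) was called. Calls over all genes moved with them, from 58 to 4087 without mouse 27, 2333 without mouse 23 and 990 without mouse 26, and to between 1 and 7 without any other single mouse, so the share of 0.271% rests on single mice. Both comparisons share the EZ libraries of day 7, so they are not independent of each other.

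Across the 48 libraries most subunits varied together. The Pearson correlation of log2 CPM was 0.98 between Grin2a and Grin2b, 0.98 between Gria1 and Grin2a, and 0.91 between Gria1 and Gria2. Gria4 and Grin2c stood apart from these, with correlations to Gria1 of -0.25 and -0.04. Correlations over libraries share the library depth, the kainate groups and the cell content of the tissue, and are given as a description. The 2 genes most like each called subunit, by Pearson correlation of log2 CPM over 48 libraries, were Dlgap1 (0.99) and Lmo3 (0.99) for Gria1 and Braf (0.97) and Nckap1 (0.97) for Gria2. For Gria3 they were Trim37 (0.98) and Dcun1d4 (0.97), and for Grin1 Nat8l (0.96) and Agap2 (0.95). Grin2a was most like Gm7328 (0.99) and Grin2b (0.98), Grin2b was most like Grin2a (0.98) and Scn8a (0.98), and Grin2d was most like Cux2 (0.96) and Rims3 (0.95).

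Each subunit was also set against the mean log2 CPM of the 8 pan-neuronal markers of the same library. On that scale Gria1 was lower with kainate in all 6 comparisons, by -0.59 in the EZ at day 3 and -0.60 at day 7, and by -0.48, -0.31 and -0.24 in the PIZ. At day 14 in the EZ it was at -0.59, a value that rested on mouse 27 and was -0.21 without it. Gria3 was at -0.57 at day 3 in the EZ and at 0.01 at day 7, so at day 7 it was lower by about as much as the pan-neuronal genes. Grin1 was at 0.08 and 0.31 on these days, that is, its difference from saline was smaller than that of the pan-neuronal genes at day 7. Gria4 was at 0.79 and 1.29 and Grin2c at 0.34 and 1.59. Gria2 was at -0.31 and -0.06, Grin2a at -0.44 and -0.47, Grin2b at -0.33 and -0.41, Grin2d at -0.50 and -0.14 and Grin3a at -0.13 and 0.88. Relative Grin2d levels spread widely with kainate and overlapped with saline. They ran from -7.79 to -6.39 against -6.66 to -6.11 at day 3, and from -7.17 to -5.97 against -6.65 to -6.10 at day 7. In the PIZ at day 3 the relative levels were -0.57 for Grin3a, -0.51 for Gria2, -0.41 for Gria3 and 0.01 for Grin1, and those of the subunits not yet named ran from -0.26 for Gria4 to 0.31 for Grin2c. An exact permutation test of 4 against 4 libraries cannot give a p under 0.0286, and none of the 60 values had an adjusted p under 0.11, so none of these differences passed.

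**Figure D3:**
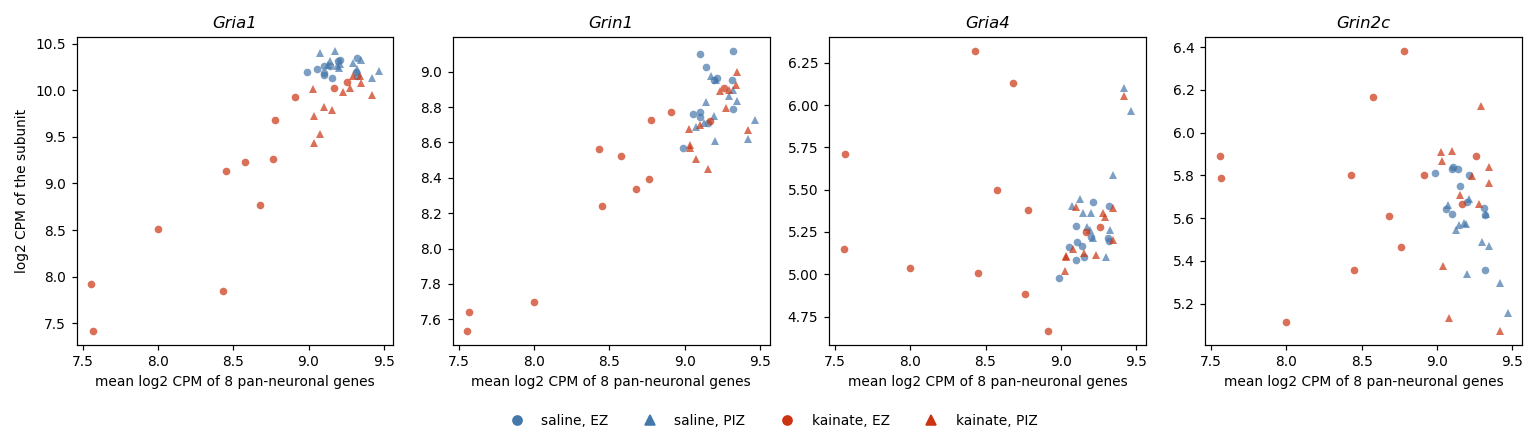
Log2 CPM of Gria1, Grin1, Gria4 and Grin2c (vertical axes) against the mean log2 CPM of 8 pan-neuronal genes (horizontal axis) in the 48 libraries, circles for the EZ and triangles for the PIZ, blue for saline and red for kainate. Gria1 and Grin1 follow the pan-neuronal level (Pearson r 0.91 and 0.88 against the log2 of their summed CPM plus 1), and Gria4 and Grin2c do not.

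The 4 summed AMPA subunits were set against Grin1 as a log2 ratio, per kilobase. The ratio does not stand for the NMDA subunits as a set. In the EZ at day 3 and day 7 the log2 fold change of Grin1 was -0.57 and -0.71. Grin2a (-1.07 and -1.29), Grin2b (-0.96 and -1.27) and Grin2d (-1.11 and -1.26) were lower than that on both days. Grin2c (-0.31 and 0.50) was not, and Grin3a (-0.80 and -0.18) was at day 3 only. In the EZ at day 3 it was 1.16, 1.39, 1.29 and 1.25 with kainate against 1.62, 1.98, 1.82 and 1.79 with saline, and at day 7 it was 1.02, 1.31, 1.26 and 0.94 against 1.56, 1.83, 1.64 and 1.77. The groups did not overlap, and the mean difference was -0.53 at day 3 and -0.57 at day 7. The PIZ gave 1.43, 1.70, 1.45 and 1.27 against 1.88, 2.07, 1.99 and 1.85 at day 3, a difference of -0.48. It was -0.22 at day 7 and -0.31 at day 14 in the PIZ, and -0.31 at day 14 in the EZ, where mouse 27 was at 0.61, the groups overlapped and the difference was -0.08 without that mouse. The ratio was thus lower with kainate in all 6 comparisons, but no ratio passed: the lowest adjusted p over 18 tests was 0.10 (exact permutation test, two-sided). The log2 ratio of Gria1 to Gria2 differed by -0.29 in the EZ at day 3 and by -0.54 at day 7 (exact p = 0.23 and 0.086), with 0.63 ± 0.34 and 0.48 ± 0.55 (SD, n = 4) in kainate against 0.91 ± 0.05 and 1.02 ± 0.14 in saline libraries. Single mice carried much of both, as the difference was -0.15 at day 3 without mouse 30 and -0.28 at day 7 without mouse 35. At day 14 in the EZ it was -0.36, and 0.02 without mouse 27, and in the PIZ it was 0.03, 0.16 and 0.08 at day 3, 7 and 14. The log2 ratio of Grin2b to Grin2a differed by between -0.02 and 0.11 in the 6 comparisons. Of the summed AMPA subunits per kilobase in the EZ at day 7, Gria1 made up 46.6% ± 10.2 (SD, n = 4) with kainate and 57.8% ± 2.09 with saline, and Gria4 6.13% ± 3.39 and 1.86% ± 0.19. Grin2c made up 12.1% ± 3.35 of the NMDA subunits with kainate and 4.50% ± 0.41 with saline.

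**Figure D4:**
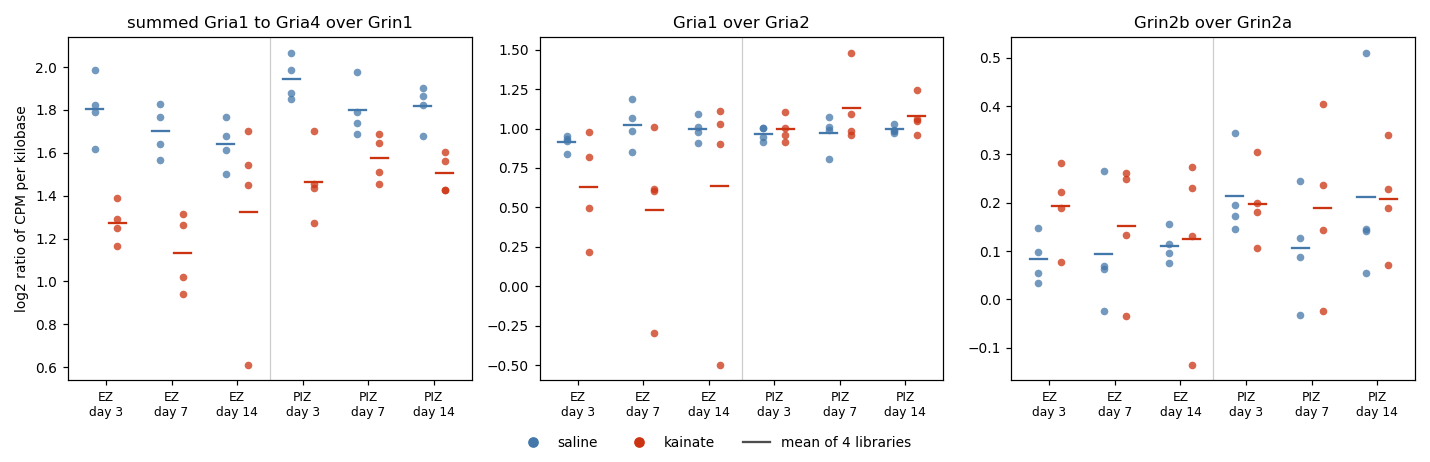
Log2 ratios of CPM per kilobase in each library for the summed AMPA subunits over Grin1 (left), Gria1 over Gria2 (middle) and Grin2b over Grin2a (right), by region and day, blue for saline and red for kainate, with group means as lines. In the left panel the kainate means are below the saline means in all 6 pairs, and mouse 27 lies lowest in the EZ at day 14, at 0.61.

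Gria4, Grin2d and Grin3a were high together in a few PIZ libraries of either treatment. Saline mouse 39 at day 14 had Gria4 at 68.5, Grin3a at 62.0 and Grin2d at 12.3 CPM, and saline mouse 18 at day 3 had 62.3, 43.7 and 12.1 CPM. Kainate mouse 21 at day 7 had 66.4, 51.8 and 12.8 CPM. In these 3 libraries the 4 mossy cell markers summed to between 81.6 and 122 CPM, against 16.3 to 56.4 CPM in the other 21 PIZ libraries. Most of this was Calb2, at 65.4 to 105 CPM against 5.48 to 45.3 CPM, a calcium-binding protein gene that other neurons also express. Calcrl, another mossy cell marker, was at 10.5 to 12.1 CPM in the 3 and at 5.10 to 11.6 CPM in the other libraries. The other 2 markers of the list overlapped between these libraries and the rest as well. The 8 granule cell markers of the 3 libraries summed to between 385 and 582 CPM against 566 to 1146 CPM, and the 7 interneuron markers to between 614 and 690 CPM against 393 to 606 CPM. The pan-neuronal markers summed to between 7461 and 7862 CPM against 5181 to 7365 CPM, and the thalamus markers to at most 34.4 CPM against 39.9 to 75.6 CPM. The part of these markers in the levels of the 3 subunits was not tested.

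The receptors work with other proteins, and 36 genes for them were followed in 5 lists. AMPA receptor auxiliary subunits set gating and delivery to the synapse. Of 13 such genes, 6 were downregulated and 2 upregulated in the EZ at day 3, where 8.61% of all tested genes were downregulated and 16.1% upregulated. At day 7 they were 7 and 2, where the shares were 11.9% and 20.6%, so the upregulated genes were no more frequent than in the whole table. The list's median log2 fold change was -0.54 and -0.61. Shisa7 (-1.71 ± 0.30, adjusted p = 1.7e-05), Shisa6 (-1.30 ± 0.30, 0.00043) and Cacng2 (-1.15 ± 0.17, 2.0e-06), the gene of stargazin, fell most at day 3 on the log2 scale by edgeR. At day 7 Shisa6 was at -1.75 ± 0.30, Shisa7 at -1.40 ± 0.30 and Cacng2 at -1.13 ± 0.17. Cacng4 rose, by 0.59 ± 0.14 (adjusted p = 0.00048) and 0.74 ± 0.14 (1.8e-05). Shisa8, a gene of low counts, rose from counts of 4 to 12 per saline library to 45 to 127 per kainate library at day 3 (3.06 ± 0.51, adjusted p = 9.3e-06), and was at 2.68 ± 0.49 at day 7. In the PIZ at day 3 Shisa8 was the 1 upregulated gene of this list, with 36 to 124 counts against 0 to 10, where 7.12% of all tested genes were upregulated, and Cacng3 (-0.83 ± 0.22, adjusted p = 0.0057) was the 1 downregulated gene, where 1.57% of all tested genes were downregulated.

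Of 13 genes for AMPA receptor assembly, trafficking and clustering, 2 were downregulated and 1 upregulated in the EZ at day 3, and 7 and 1 at day 7, with list medians of -0.52 and -0.61. The shares of all tested genes were 8.61% and 16.1% at day 3 and 11.9% and 20.6% at day 7, and 1 of 13 upregulated was below them. Grip2 (-1.30 ± 0.22, adjusted p = 1.3e-05) and Nsf (-0.73 ± 0.22, 0.0052), the ATPase of membrane fusion that binds GluA2, fell at day 3. At day 7 the largest falls were those of Frrs1l (-1.17 ± 0.24, adjusted p = 6.4e-05), Nptx1 (-1.16 ± 0.32, 0.0019) and Nsf (-1.09 ± 0.22, 6.0e-05). Nptx2, a secreted pentraxin that clusters AMPA receptors and is induced by activity, was at 546, 284, 246 and 91.6 CPM with kainate and at 22.2 to 34.5 CPM with saline in the EZ at day 3. All kainate libraries were above all saline libraries, with log2 fold changes of 3.41 ± 0.44 at day 3 (adjusted p = 2.7e-07) and 2.64 ± 0.43 at day 7 (3.4e-06). In the PIZ at day 3 it was at 47.6 to 116 CPM against 14.2 to 33.1 CPM (1.59 ± 0.42, adjusted p = 0.0052), and it was the 1 of 13 genes of the list that passed there, near the share of 7.12% of all tested genes that were upregulated.

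Of the 5 genes that supply or clear the NMDA receptor co-agonists, Slc1a4, a transporter of serine and alanine, and Slc6a9, the glycine transporter GlyT1, were upregulated in the EZ at day 3 (0.67 ± 0.13, adjusted p = 0.000101, and 0.68 ± 0.17, 0.00103) and at day 7 (1.03 ± 0.14, 1.0e-07, and 0.61 ± 0.17, 0.0022). Srr, Phgdh and Slc7a10 did not pass. Slc1a4 was also upregulated in the PIZ at day 3 (0.61 ± 0.13, adjusted p = 0.00096). For this list and the deaminases and other subunits that follow, the shares of all tested genes were 16.1% and 20.6% upregulated and 8.61% and 11.9% downregulated in the EZ at day 3 and day 7, and 7.12% upregulated and 1.57% downregulated in the PIZ at day 3. Of the 3 adenosine deaminase genes, Adarb1, the enzyme that edits the glutamine/arginine codon of Gria2 printed above, was downregulated in the EZ at day 7 (-0.97 ± 0.16, adjusted p = 3.5e-06), and Adarb2 at day 3 (-1.46 ± 0.46, 0.0089) and day 7 (-2.02 ± 0.47, 0.00041). Adar did not pass on either day. Of the other 2 subunit genes, Grid1 was downregulated at both days (-0.82 ± 0.16, adjusted p = 9.8e-05, and -1.17 ± 0.16, 2.9e-07) and in the PIZ at day 3 (-0.65 ± 0.16, 0.0033), and Grin3b did not pass. None of the 36 genes was called in the EZ at day 14 or in the PIZ at day 7 or day 14.

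**Figure D5:**
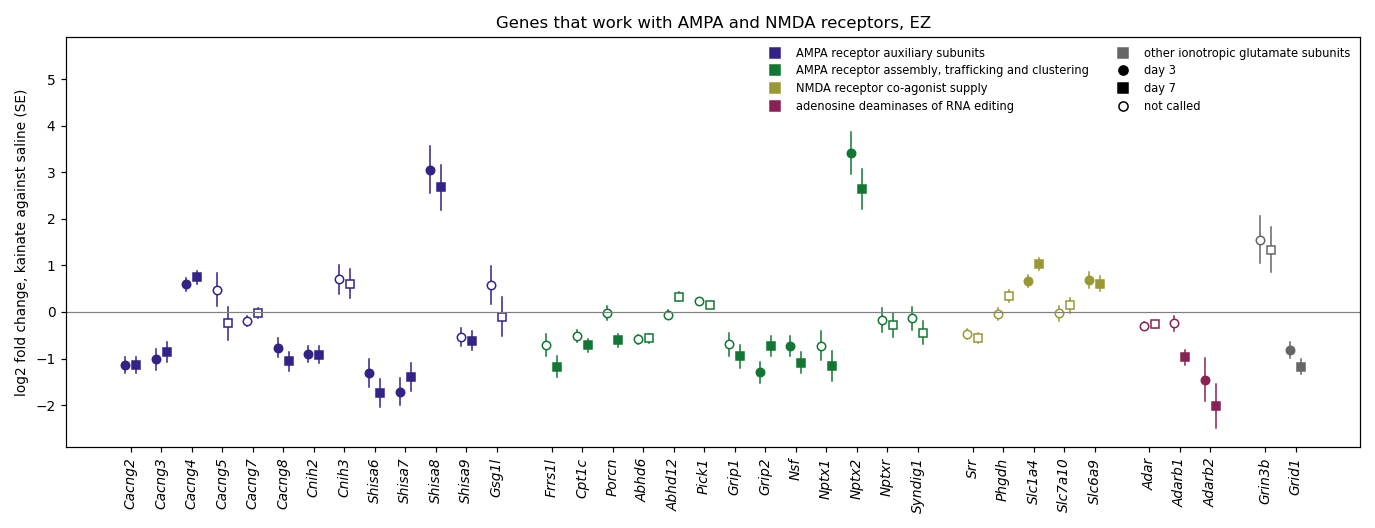
Log2 fold change with kainate in the EZ at day 3 (circles) and day 7 (squares) for 36 genes that work with AMPA and NMDA receptors, with standard errors, colored by list. Filled symbols were called. Shisa8 and Nptx2 lie highest, at 3.06 and 3.41 at day 3, and Shisa6, Shisa7 and Adarb2 lowest.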

How the data were processed

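Counts were made by the authors from poly-A selected, stranded, paired-end libraries: reads were trimmed with fastp 0.20.1, aligned to GRCm39 with HISAT2 2.2.1 and counted by strand on Gencode M28 genes with featureCounts of Subread 1.6.4, with multi-mapping reads kept at their primary alignment. The deposited whole-number counts were not normalized. Of their gene identifiers 98.9% matched the Gencode M39 annotation used here for symbols, positions and reference transcript lengths. Because counting used strand, the antisense gene Grin1os was counted apart from Grin1.

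After filterByExpr and TMM scaling, edgeR 4.0.16 (R 4.3.3) fitted the genes in 1 quasi-likelihood model of 12 group means over 48 libraries. Calls needed an adjusted p under 0.01 (Benjamini-Hochberg over 21390 genes of a comparison) and a change over 1.5-fold, the thresholds of the study. Library values in log2 CPM had a prior count of 2, and ratios and relative levels were compared by two-sided exact permutation tests. Mice are independent animals and the 2 sides of a mouse are paired, with residual correlations of -0.054 to 0.376, and this pairing entered as an alternative. No 2 libraries of a group differed by less than sampling noise (chi-square per degree of freedom of 4.16 for the closest pair). The edgeR, DESeq2, limma-voom and block fits were tested on simulated counts for some of the comparisons, and the other steps were not.

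The 10 genes, the lists and the comparisons were chosen with earlier results of these data known. Named genes are the 10 subunits, of each list up to 3 called genes per direction with the largest change in the EZ at day 3 and day 7 (for the PIZ, those called where the count was 5 or fewer), 2 marker genes per list at most, and the 2 genes most like each called subunit. Genes named as not called were chosen after their values were seen. Alternatives were DESeq2 1.42.0, limma-voom (limma 3.58.1) with quality weights, RLE size factors, no filter, an adjusted p under 0.05, only the compared groups, each mouse left out, mouse as a block, and a prior count of 0.5 for ratios and relative levels. The 14 marker lists and the 36 partner genes came from general knowledge, and 1 further gene of these lists is not reported here. Columns of other samples were not present. Sequences were read from Gencode M39 transcripts.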

Additional observations from a re-analysis of the deposited data

Results flagged for a closer look

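Within groups of 4 libraries, 120 sets of values of a subunit and 36 sets of subunit ratios were searched for 1 library far from the other 3 by Dixon's test, and 13 were found. Chance alone gives about 1 in 20 such sets. In the EZ at day 14, kainate mouse 27 had Gria1 at 230 CPM (the others 974 to 1088 CPM), Grin2d at 1.5 CPM (7.35 to 8.07 CPM) and a log2 ratio of Gria1 to Gria2 of -0.50 (0.90 to 1.11). In the EZ at day 3, kainate mouse 30 had Gria4 at 70.1 CPM (29.4 to 32.8 CPM).

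At day 7, PIZ libraries of 2 mice stood apart. Kainate mouse 23 had Grin1 at 486 CPM (407 to 415 CPM) and Grin2b at 876 CPM (804 to 809 CPM), and kainate mouse 21 had Grin2c at 33.6 CPM (57.2 to 60.2 CPM) and Grin2d at 12.8 CPM (8.21 to 8.52 CPM). Saline mouse 39 of day 14 had, in the PIZ, Gria2 at 1047 CPM (1134 to 1144 CPM), Gria4 at 68.5 CPM (37 to 41.1 CPM) and Grin3a at 62.0 CPM (23.4 to 26.5 CPM). Saline mouse 18 of day 3 had, in the PIZ, Grin2d at 12.1 CPM (6.46 to 6.85 CPM) and Grin3a at 43.7 CPM (26 to 26.9 CPM).

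The kainate effect on Grin2d at day 7 differed between the EZ and the PIZ, by -1.59 on the log2 scale (edgeR interaction, adjusted p = 0.0054). The high PIZ library of mouse 21 enters this difference, which was -1.34 without that mouse (adjusted p = 0.052). The call was also lost without kainate mouse 35 or any of saline mice 20, 33, 34 and 89.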

How the results depend on the processing

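Of 1970 subunit values under an alternative, 33 lost their call, 58 gained one and 0 called values changed sign, while 70 uncalled values did. In the EZ at day 7, 7 subunits were called, 1 with only the groups compared and 3 without kainate mice 21 and 35 (chosen after the data were seen). In the PIZ at day 3, 4 were called by limma-voom and 4 with only the groups compared, against 2. For the difference between EZ and PIZ at day 3, limma-voom called 2 against 0. At day 7 the count of 1 became 5 at an adjusted p under 0.05, 2 with DESeq2, 7 with limma-voom and 0 without mice 21 and 35. Over all genes these settings called 4387, 2917, 5126 and 1, against 2115. Between day 3 and day 7 in the EZ, the count of 0 became 3 with limma-voom and 1 without mice 21 and 35. All genes called there were 1225 and 21, against 31. Between day 7 and day 14 the count of 0 became 1 at an adjusted p under 0.05 and 6 with limma-voom, with 2378 and 6301 of all genes against 58. As single mice were left out, the counts ran from 3 to 7 in the EZ at day 3, 6 to 7 in the EZ at day 7, 1 to 2 in the PIZ at day 3, 0 to 7 for EZ against PIZ at day 7 and 0 to 4 for day 14 against day 7. The causes were not tested. Ratios and relative levels could not reach a p under 0.01 in any setting, as the exact test stops at 0.0286. Their calls therefore could not change, while some of their values moved without single mice, as given above. Over all genes, the count in the EZ at day 7 was 6960, and 3847 with only the groups compared, and at day 14 it was 504, 58 with limma-voom, 0 with only the groups compared and 7 without kainate mouse 27. In the EZ at day 3, DESeq2 and RLE size factors each called 8 subunits against 6, adding Grin1 and Grin3a. They called 5381 and 5259 of all genes, against 5280.

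With mouse as a replicate block, 2 subunits were called for EZ against PIZ at day 7, Grin2d (-1.58, adjusted p = 0.0052 by edgeR) and Gria3 (-0.83, adjusted p = 0.0088). Of all genes 2356 were called there, against 2115 without the block. The block changed no other call, with 0 subunits called at day 3, at day 14 and between the saline sides.

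Grin2d rests on as few as 33 counts in a library, and with 4 mice a group the exact tests of ratios could not go below p = 0.0286.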
